A study of Mus musculus with 30 samples.

Results

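The experiment described here is the comparison of HPCLSK cells carrying the STAT3 variant Y640F with HPCLSK cells carrying an empty vector. HPCLSK is a mouse haematopoietic stem and progenitor cell line. Libraries were taken by their labels: the 3 named for Y640F and the 3 named for the dsRed empty vector in this line, 6 of the 18 RNA libraries of the series. Comparisons were also drawn with 3 HPCLSK libraries carrying STAT3 without the change, and with empty vector and Y640F in HPC7, a second progenitor line. The labels give strain C57BL/6N for HPCLSK and 129SV for HPC7. All cells carried a retroviral vector and were grown untreated with stem cell factor in Iscove's medium (for HPCLSK, on plates coated with agarose). The series text calls the 3 libraries of a group technical replicates, so the errors and p-values measure the spread between libraries and not between separate transductions.

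STAT3 is a transcription factor that cytokine receptors such as those of the gp130 family activate through Janus kinases. Once phosphorylated, it pairs through its SH2 domain, enters the nucleus and binds DNA, where it drives genes that include its own feedback inhibitor Socs3. Y640F replaces a tyrosine of the SH2 domain with phenylalanine and is known as an activating change found in lymphoid malignancies. In blood formation STAT3 is known for its part in the granulocyte response to cytokines and in the acute-phase response.

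The 9 HPCLSK libraries held 9537258 to 22154763 counts, and 3 counts in 1 of them corresponded to 0.135 to 0.315 CPM of its raw total. The CPM of single genes were scaled by the normalized library total. Of 44 stem and progenitor markers in the files, Kit and Cd34 had 38929 and 124540 counts over the empty vector libraries. Others were low there, such as Ly6a at 208 counts, Slamf1 at 39 and Prdm16 at 0, and 4 markers had at most 3 counts. Among markers of other lineages, Pax5, Ebf1, Cd3e, Cd8a, Ncr1, Hba-a1 and Slc4a1 had 0 counts in all 3 HPCLSK groups. Replicate 1 stood apart in both groups compared. Between Y640F replicate 1 and replicates 2 and 3, chi-square over its degrees of freedom was 23.02 and 29.37, against 3.49 between the latter. For empty vector the values were 11.5 and 8.66 against 2.61. Among genes of at least 5 CPM in the group, 69 were at least 2-fold higher in Y640F replicate 1 than in the mean of the other two, and 16 at least 2-fold lower. That library was the most extreme of its group for the genes called below, with a median log2 ratio to the other two of 0.343 over genes called higher and -0.294 over genes called lower.

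Y640F changed a large part of the transcriptome. Of 12552 genes tested, 1207 were called higher (9.62%) and 825 lower (6.57%), a call being an adjusted p under 0.05 with at least a 2-fold change. Higher calls were also larger. A change of at least 4-fold was seen in 627 genes called higher and 242 called lower, and one of at least 16-fold in 202 and 55. By adjusted p alone, 3836 genes were higher (30.6%) and 3513 lower (28%). The median log2 fold change of all tested genes was -0.00579. The 3 and 3 libraries did not overlap for 8256 genes (65.8% of those tested), and for 2010 of the 2032 genes called. Without replicate 1 of both groups, 1154 genes were called higher and 830 lower, of which 1063 and 702 were among the calls above.

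**Figure D1:**
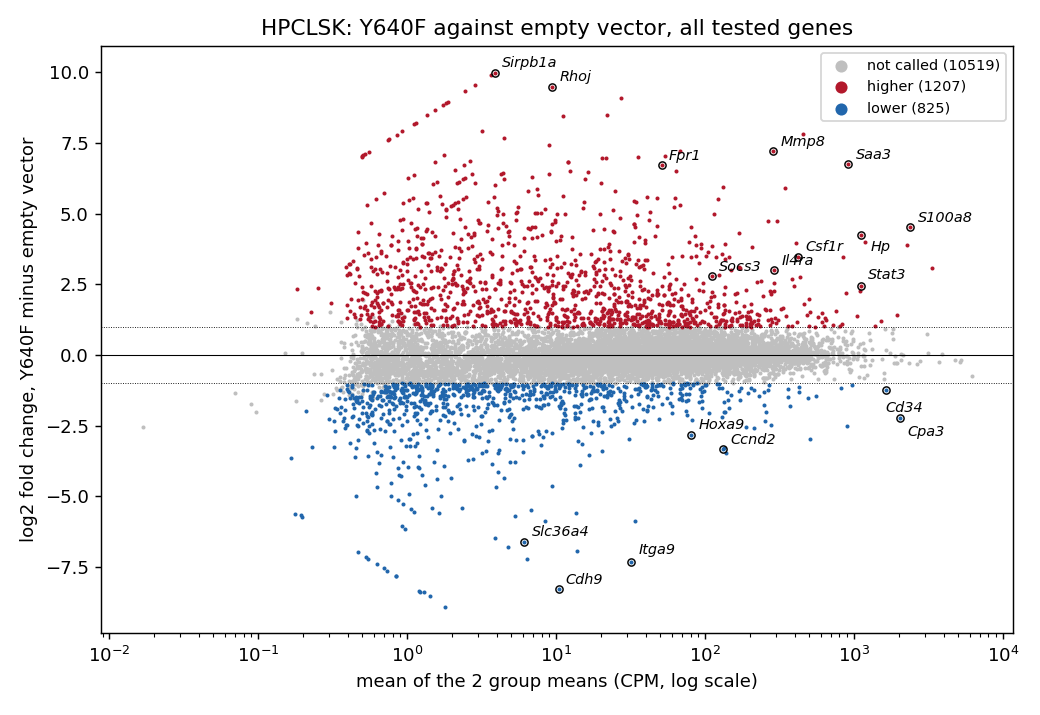
Log2 fold change of Y640F against empty vector in HPCLSK (vertical axis) against the mean of both group means in CPM (horizontal axis, log scale), 1 point a gene. Red points are the 1207 genes called higher and blue points the 825 called lower. Dotted lines mark a 2-fold change, and genes without counts in either group are not drawn. Saa3, S100a8 and Mmp8 stand high on the right, and Cd34 and Cpa3 low.

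Stat3 itself, at chr11:100885098-100939540 on the minus strand (GRCm38, ENSMUSG00000004040.16), was read first as a check of the labels. With empty vector it stood at 359, 335 and 352 CPM. The STAT3 libraries held 593, 549 and 632 CPM, and those of Y640F 1840, 1877 and 1928. The 3 groups did not overlap, and Y640F was the highest. The log2 fold change of Y640F against empty vector was 2.43 ± 0.06 (SE; adjusted p = 4.35e-09), and against STAT3 it was 1.67 (adjusted p = 5.5e-08). Reads from the vector and from the endogenous locus are counted together, and the changed residue and the higher Stat3 RNA cannot be told apart in any comparison of the forms.

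Socs3 and 2 further genes called higher held the spaced palindrome TTCNNNGAA, the core of the sequence STAT dimers bind, in the bases before their start. They are shown because they were the members with a match among the called STAT3-target list and the 8 genes with the largest rise. The 250 bases before each start are given 5′ to 3′ along the gene's strand, from the RefSeq promoter table (GRCm38.p6), with the match in capitals. Sirpb1a encodes a signal-regulatory protein of myeloid cells (chr3:15426428-15426677, minus strand, match beginning 161 bases before the start), Socs3 the feedback inhibitor (chr11:117969367-117969616, minus strand, 154 bases before), and Icam1 an adhesion molecule (chr9:21015690-21015939, plus strand, 42 bases before). The log2 fold change of Icam1 was 0.93 without Y640F replicate 1, under the fold minimum.
Sirpb1a: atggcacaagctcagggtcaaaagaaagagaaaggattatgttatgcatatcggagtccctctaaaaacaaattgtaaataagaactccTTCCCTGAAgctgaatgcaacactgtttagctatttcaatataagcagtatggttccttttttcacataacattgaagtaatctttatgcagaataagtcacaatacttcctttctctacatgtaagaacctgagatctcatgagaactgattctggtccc
Socs3: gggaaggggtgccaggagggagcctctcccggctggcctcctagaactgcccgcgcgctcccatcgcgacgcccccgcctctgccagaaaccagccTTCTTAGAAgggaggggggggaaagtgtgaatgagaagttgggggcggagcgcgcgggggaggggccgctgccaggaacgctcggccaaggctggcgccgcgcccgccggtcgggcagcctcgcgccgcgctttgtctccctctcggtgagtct
Icam1: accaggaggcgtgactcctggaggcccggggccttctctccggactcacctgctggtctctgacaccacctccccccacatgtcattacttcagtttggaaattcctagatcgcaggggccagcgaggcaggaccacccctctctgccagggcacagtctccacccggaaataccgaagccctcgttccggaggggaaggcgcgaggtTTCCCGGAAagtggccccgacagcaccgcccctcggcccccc
The motif reads the same on both strands, and every match of TTCCNGGAA is also one of TTCNNNGAA. Over windows of 300 bases reaching 50 bases past the start, TTCNNNGAA was present in 8.37% of windows of genes called higher, 6.73% of those called lower and 6.97% of those of tested genes. Its share in all windows of the table was 8.3%. The shares of TTCCNGGAA were 1.39%, 1.1%, 1.25% and 1.15% in the same order. A window was found for 9387 tested genes.

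Among 38 tested genes of a list of STAT3 and cytokine-response targets, 19 were called higher (50%) and 4 lower (10.5%). Over all tested genes the shares were 9.62% and 6.57%. The median log2 fold change of the list was 1.04. Socs3 stood at 33.96, 28.02 and 22.33 CPM with empty vector and 180, 183 and 218 with Y640F, a log2 fold change of 2.79 ± 0.14 (adjusted p = 1.47e-07). Bcl3, a nuclear IkB protein, rose from 16.9, 21.5 and 21.2 to 91.7, 85.7 and 82.4 CPM (2.11 ± 0.10, adjusted p = 1.32e-07). The acute-phase genes of the list rose further, as Saa3, serum amyloid A, went from 10.5 to 22.7 CPM over the empty vector libraries to 1148 to 2884 over the Y640F libraries (6.76 ± 0.79, adjusted p = 3.77e-05). Haptoglobin, Hp, rose from 89.7, 140 and 107 to 2929, 1882 and 1599 CPM (4.25 ± 0.40). In both genes Y640F replicate 1 was the highest library, and no library of one group reached the other. The fold of Saa3 was 6.02 on the log2 scale without replicate 1 of both groups.

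Not all classical targets were called higher. Pim1, a serine/threonine kinase, rose from 280, 233 and 229 CPM with empty vector to 381, 482 and 530 with Y640F, without overlap. Its log2 fold change of 0.91 ± 0.11 (adjusted p = 5.35e-05) lay under the 2-fold minimum, and it was 1.01 without Y640F replicate 1. Cish, a feedback inhibitor best known downstream of STAT5, was at 4.76, 4.96 and 4.72 against 3.47, 4.21 and 3.24 CPM (-0.41 ± 0.14, adjusted p = 0.0313). Socs2, of the same family, fell from 1.10, 1.23 and 1.59 to 0.267, 0.194 and 0.242 CPM, and with STAT3 it was at 3.13 to 5.30 CPM. The log2 difference between Y640F and STAT3 was -4.24 for Socs2 (adjusted p = 3.76e-06). Ccnd2, which encodes cyclin D2, fell from 250, 232 and 242 to 17.1, 30.9 and 23.6 CPM (-3.34 ± 0.15, adjusted p = 8.76e-08). With STAT3, Ccnd2 stood at 243, 238 and 232 CPM (-0.02 against empty vector, adjusted p = 0.94). Bcl2, the survival gene, fell from 87.8 to 106 CPM to 28.7 to 36.7 CPM (-1.55 ± 0.10), while Mcl1, of the same family, rose from 480 to 603 to between 1024 and 1300 CPM (1.10 ± 0.10, and 0.97, under the fold minimum, without Y640F replicate 1). Of 26 tested JAK-STAT components, 4 were called higher (15.4%, against 9.62% of all tested genes) and none lower. They were the phosphatases Ptpn1 and Ptpn6, the adaptor Sh2b2, and Stat6. Without Y640F replicate 1, Sh2b2 and Stat6 fell under the fold minimum, at 0.96 and 0.98, and Sh2b2 also without empty vector replicate 1, at 0.89.

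**Figure D2:**
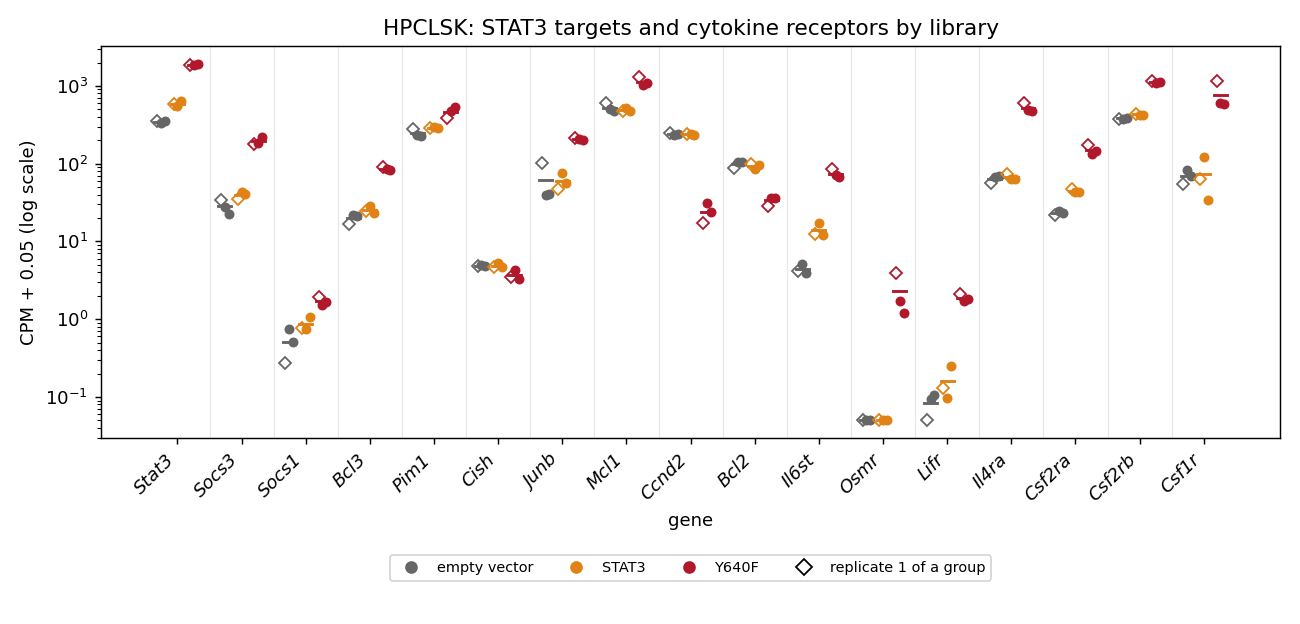
CPM plus 0.05 (vertical axis, log scale) of STAT3 targets and cytokine receptors in each HPCLSK library, with empty vector grey, STAT3 orange and Y640F red. Bars are group means and open diamonds replicate 1. Stat3, Socs3 and Il4ra are highest with Y640F, and Ccnd2 and Bcl2 are lowest there.

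Cytokine receptors changed in both directions, with 15 of 38 tested called higher (39.5%) and 5 lower (13.2%). These shares were 9.62% and 6.57% over all tested genes. Among the rises were 3 chains of the gp130 family. Il6st, gp130 itself, was at 4.10, 5.04 and 3.92 CPM with empty vector and 12.5, 17.2 and 11.9 with STAT3. Its Y640F libraries held 85.6, 71.6 and 66.97 CPM (4.08 ± 0.16 against empty vector, adjusted p = 4.73e-08). Its partners Osmr and Lifr were near 0 without Y640F. Osmr went from 0 counts over the empty vector libraries to 108 over those of Y640F, at least 38.1-fold when the empty vector group is set to 3 counts. Lifr went from 2 to 93 counts, a ratio of 49.2 (95% exact binomial interval 13.2 to 412, counting error only). Per kilobase of exon, both stayed low with Y640F, at 0.185 and 0.177 CPM, against 6.73 for Il6st. Il6ra, the binding chain for interleukin 6, did not pass the test (0.23 ± 0.13, adjusted p = 0.146) and was at 24.01 CPM per kilobase with Y640F.

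Il4ra, the shared chain for interleukins 4 and 13, rose from 56.2, 67.6 and 69.3 to 595, 486 and 482 CPM (3.01 ± 0.11, adjusted p = 3.73e-08). With STAT3 it stood at 74.1, 63.7 and 63.0 CPM. Its partner Il13ra1 rose from 0.22 to 0.439 CPM to between 8.22 and 14.6 CPM. The receptor of GM-CSF rose in both chains, Csf2ra by 2.69 ± 0.10 and the common chain Csf2rb by 1.56 ± 0.04 on the log2 scale. Csf2rb was at 381, 380 and 385 CPM with empty vector and 1147, 1103 and 1125 with Y640F. Csf2rb2 is a near-identical neighbour of Csf2rb, so reads could be split between them, and it rose by 1.66 ± 0.07. Il1r1, the signalling receptor of interleukin 1, and its decoy Il1r2 both rose (4.39 ± 0.17 and 5.41 ± 0.22). Csf3r, the G-CSF receptor, did not pass the test at 396 to 487 against 423 to 447 CPM. Kit, the receptor of the stem cell factor in the medium, fell from 816, 678 and 699 to 222, 272 and 275 CPM (-1.51 ± 0.09, adjusted p = 5.11e-07). Flt3, Il5ra, Il18r1 and Il11ra1 were the other falls.

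Genes of maturing neutrophils and of monocytes were higher in most of their tested members. Of 25 tested genes of neutrophil secondary and gelatinase granules and their surface receptors, 20 were called higher (80%) and 3 lower (12%). Over all tested genes these shares were 9.62% and 6.57%. The median log2 fold change of the list was 2.29. The higher calls stayed at 20 with any 1 library left out, but the lower calls fell to 0 without empty vector replicate 2 and to 1 without Y640F replicate 2. The summed level of the whole list was 1266 to 2330 CPM of raw totals with empty vector, 4992 to 9303 under STAT3 and 13030 to 15160 with Y640F. Monocyte, macrophage and dendritic cell markers had 22 of 32 called higher (68.8%) and none lower, with a median of 2.02. Their summed level was 1515 to 1757 CPM with empty vector and 3549 to 5622 with Y640F. In bulk RNA, more cells of a type and more RNA per cell cannot be told apart. Without replicate 1 of both groups, 20 monocyte markers were higher and 1 lower. Some members did not rise. Ly6c2 held 2584 counts over the empty vector libraries, 8859 with STAT3 and 1292 with Y640F, not scaled for depth. Fcgr3 went from 7352 counts with empty vector to 5189 with Y640F, and Ccr2 from 12405 to 12305.

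Mmp8, the neutrophil collagenase, rose from 2.42, 4.69 and 3.92 to 748, 454 and 513 CPM (7.22 ± 0.26, adjusted p = 3.3e-08). Fpr1, the receptor of formylated bacterial peptides, rose from 0.293, 1.31 and 1.02 to 144, 84.1 and 75.7 CPM (6.72 ± 0.41). With STAT3 these genes were at 6.27 to 9.47 and 1.12 to 3.52 CPM. S100a8, a subunit of calprotectin, rose with both forms, from 100.9 to 294.7 CPM with empty vector to 1105 to 2207 with STAT3 and 4012 to 5003 with Y640F. Its partner S100a9 was at 3777 to 5065 CPM with Y640F and 1545 to 3205 with STAT3, and this difference did not pass the test (0.85 on the log2 scale, adjusted p = 0.079). Without replicate 1 of both groups, the log2 fold change of Fpr1 was 6.04. Cybb, the oxidase subunit gp91phox, rose by 3.47 ± 0.39 (2.85 without replicate 1 of both groups) and Lyz2, lysozyme, by 3.09 ± 0.22.

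Of the secondary granule genes, Ngp, Ltf and Camp went the other way, and STAT3 and Y640F parted there. Others of the list rose, such as Lcn2 and Chil3, from 2842 and 6006 counts with empty vector to 38969 and 23274 with Y640F. With STAT3 they had 11435 and 25019 counts, not scaled for depth. Ngp, neutrophilic granule protein, held 24.01, 105.6 and 64.8 CPM with empty vector, while the values were 606, 385 and 256 under STAT3 and 22.1, 24.01 and 28.2 under Y640F. Ltf, lactotransferrin, was at 5.49, 37.4 and 21.5, then 147, 91.4 and 53.9, then 3.00, 5.5 and 7.21 CPM. Camp, the cathelicidin, followed the same order of groups. All were called lower against empty vector (adjusted p = 0.0216, 0.0152 and 0.0184), but the libraries of the groups overlapped, with empty vector replicate 1 within the range of Y640F. Without empty vector replicate 2 none of the 3 passed the test, Ngp at -0.86 (adjusted p = 0.12), Ltf at -1.37 (adjusted p = 0.083) and Camp at -1.23 (adjusted p = 0.11). Ngp and Camp also lost the call without Y640F replicate 2, and Camp without Y640F replicate 3. Against STAT3 the log2 differences were -4.06 for Ngp, -4.18 for Ltf and -3.92 for Camp (adjusted p = 5.0e-05, 2.1e-04 and 1.8e-04), with no overlap. Of 13 tested primary granule genes 4 were called higher (30.8%, against 9.62% of all tested genes) and none lower, with a median of 0.397. They were Lyz1, Lyz2, Igsf6 (2.28 ± 0.25) and Ctsc, the activator of granule proteases (1.27 ± 0.12). Mpo, the primary granule peroxidase, was at 6156, 9493 and 7724 CPM with empty vector and 2684, 5795 and 5412 with Y640F (-0.75 ± 0.25, adjusted p = 0.0258), under the fold minimum. Ly6g, the surface marker of mature neutrophils, had 0 counts with empty vector, 3 under STAT3 and 1 under Y640F.

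**Figure D3:**
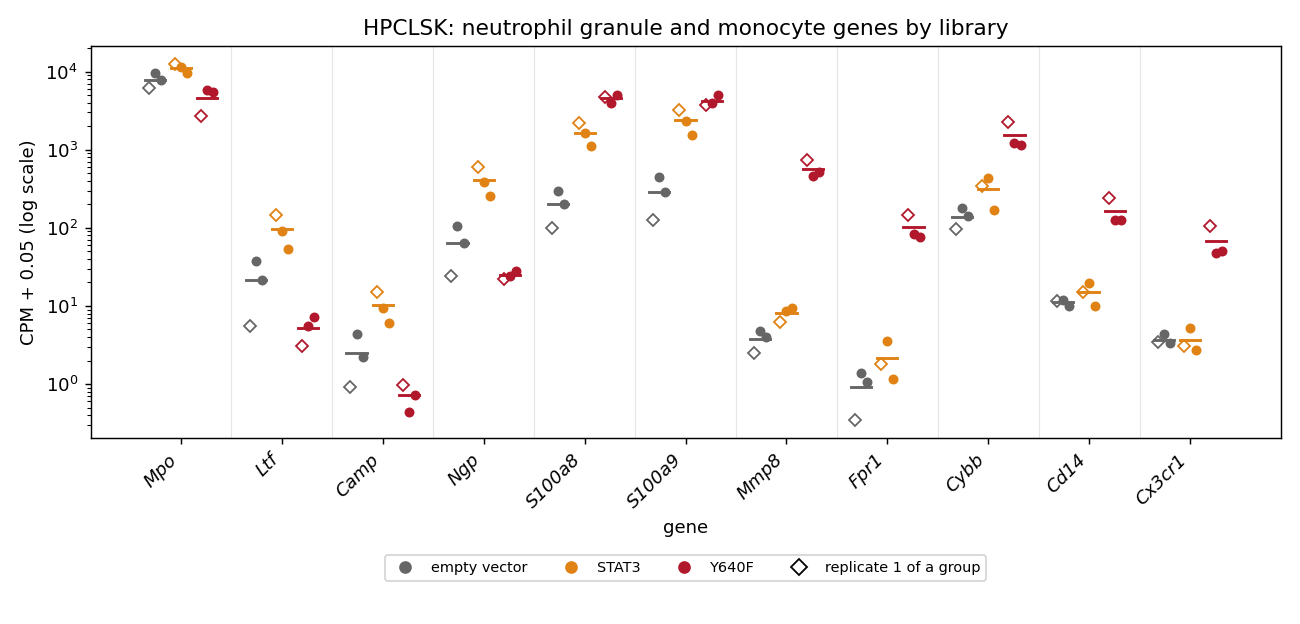
CPM plus 0.05 (vertical axis, log scale) of neutrophil granule and monocyte genes in each HPCLSK library, with empty vector grey, STAT3 orange and Y640F red. Bars are group means and open diamonds replicate 1. Ltf, Camp and Ngp are highest with STAT3, whereas Mmp8, Fpr1 and Cx3cr1 are highest with Y640F.

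Csf1r, the receptor of M-CSF, rose from 55.4, 83.5 and 68.7 to 1144, 603 and 580 CPM (3.48 ± 0.41, adjusted p = 4.29e-05), and its ligand Csf1 from 20.1, 19.4 and 17.8 to 678, 449 and 410 CPM (4.75 ± 0.29). Cd14, the co-receptor for endotoxin, rose by 3.88 ± 0.29, Cx3cr1, the fractalkine receptor, by 4.18 ± 0.35 and Clec7a, the receptor for beta-glucans, by 4.65 ± 0.45. Y640F replicate 1 was the highest library for each of these 5 genes, and Clec7a was at 3.81 without replicate 1 of both groups. Among macrophage markers, Cd68 rose by 2.33 ± 0.24, Adgre1, a macrophage adhesion receptor, by 1.43 ± 0.19 and Siglec1 by 3.15 ± 0.65 (4.24 without empty vector replicate 2), while the complement genes C1qa, C1qb and C1qc had 2, 0 and 3 counts over the Y640F libraries. Of 23 tested myeloid transcription factors, 13 were called higher (56.5%) and 1, Gfi1, lower (4.35%, with a log2 fold change of -1.08 ± 0.22). Over all tested genes the shares were 9.62% and 6.57%. The call of Gfi1 ended without empty vector replicate 1 (-0.99) and without Y640F replicate 1 (-0.91), both under the fold minimum. Cebpb, the factor of emergency granulopoiesis, rose from 4.25, 9.38 and 8.07 to 82.5, 55.9 and 55.4 CPM (3.11 ± 0.24), Spi1, which encodes PU.1, from 163 to 175 CPM to 394 to 463 (1.33 ± 0.07), and Cebpe by 2.21 ± 0.26. Cebpe was raised by STAT3 as well, at 20.2 to 36.6 CPM against 21.9 to 37.0 with Y640F. Cebpa did not pass the test (-0.17 ± 0.12, adjusted p = 0.272).

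Inflammatory ligands and their signalling genes were called higher in a large share. Of 25 chemokine and cytokine ligands 15 were higher (60%) and 3 lower (12%). The 30 NF-kB and TNF signalling genes had 15 higher (50%) and none lower. Among 33 inflammasome and pattern-recognition genes 16 were higher (48.5%) and 1 lower (3.03%). The shares over all tested genes were 9.62% and 6.57%. Il1b rose from 1.83, 1.49 and 1.48 to 44.1, 27.2 and 30.5 CPM (4.42 ± 0.21, adjusted p = 1.28e-07), and Tnf from 4.46, 4.25 and 4.09 to 40.4, 28.1 and 29.8 CPM (2.94 ± 0.21). Il1rn, the interleukin 1 receptor antagonist, rose by 6.99 ± 0.85, or 5.93 without Y640F replicate 1 and 8.0 without empty vector replicate 2. Nfkb2 and Relb, subunits of the alternative NF-kB pathway, rose by 2.13 ± 0.23 and 2.44 ± 0.32, whereas Rela and Nfkb1 were not called, at 0.38 and 0.35. Tlr2, a receptor of bacterial lipoproteins, rose from 29.5 to 35.1 CPM to 227 to 330 CPM. Of 30 immediate-early and heat-shock genes, 15 were higher (50%) and 2 lower (6.67%, or 1 gene without empty vector replicate 1 or Y640F replicate 2). Empty vector replicate 1 was high for several of them, such as Egr1 at 176 CPM against 14.7 and 13.4, and Egr3 at 2.93 against 0.175 and 0.171. Egr1 was not called (-0.53 ± 0.78, adjusted p = 0.579), but without that library it was called higher, at 1.68 (adjusted p = 0.00012). Egr3 rose by 3.33 ± 0.67, by 5.67 without that library and by 2.69 without empty vector replicate 2.

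Of 43 tested interferon-stimulated genes 12 were called higher (27.9%) and 2 lower (4.65%), against 9.62% and 6.57% of all tested genes. Ifitm1 and Ifitm3, membrane proteins that restrict virus entry, rose by 4.01 ± 0.14 and 2.69 ± 0.14, Ifitm1 from 126, 153 and 136 to 1904, 2394 and 2384 CPM. Rsad2, viperin, and Usp18, a protease that removes Isg15, fell by 1.47 and 1.05 on the log2 scale, and the call of Usp18 ended without empty vector replicate 2, empty vector replicate 3 or Y640F replicate 3 (-0.99 to -0.88). Of 30 tested MHC class I, immunoproteasome and guanylate-binding protein genes, 7 were called higher (23.3%) and none lower. Of 9 tested class II pathway genes, 2 were higher (22.2%) and 3 lower (33.3%). The summed level of the tested class II genes was 274 to 345 CPM with empty vector. It was 168 to 195 CPM with STAT3 and 380 to 722 with Y640F. Single genes that changed with both forms were H2-K1, Nlrc5 and H2-Ab1. H2-K1, a class I heavy chain, was at 459 to 480 CPM with empty vector, 899 to 1140 under STAT3 and 910 to 1036 with Y640F. Nlrc5, the activator of class I genes, was at 15.6 to 18.2, 67.2 to 73.1 and 57.0 to 62.9 CPM. H2-Ab1, a class II chain, fell from 7.91, 7.5 and 7.39 CPM to 0.200, 0.259 and 0.387 with Y640F and was at 0.241 to 0.329 with STAT3. The log2 difference of the forms was -0.04 for H2-K1 (adjusted p = 0.71), -0.26 for Nlrc5 (adjusted p = 0.0095) and -0.03 for H2-Ab1 (adjusted p = 0.98). With both forms H2-Ab1 held few counts, so a difference between them could be missed. Class I genes are near-identical copies of each other, so reads could be split between them.

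Stem and progenitor genes were lower on the whole, with 11 of 38 called lower (28.9%) and 3 higher (7.89%). Over all tested genes 6.57% were lower and 9.62% higher. Without replicate 1 of both groups, 10 members of the list were lower and 5 higher. The median of the list was -0.512, and its summed level was 8344 to 9163 CPM with empty vector against 3849 to 4837 with Y640F. Some members were lower with Y640F than with STAT3. Angpt1, a ligand of the Tek receptor, stood at 573, 416 and 424 CPM with empty vector, 368, 415 and 413 under STAT3, and 60.4, 93.9 and 100.3 with Y640F, a log2 difference between the forms of -2.23 ± 0.18 (adjusted p = 4.64e-06). Cd34, the progenitor sialomucin, fell by 1.25 ± 0.09 and lay 0.89 under STAT3 (adjusted p = 1.6e-05). For others the difference between the forms did not pass the test. Hoxa9, a homeobox factor of progenitors, went from 153, 136 and 135 CPM to 14.0, 15.6 and 14.4 with STAT3 and 13.7, 18.5 and 27.3 with Y640F. Hlf, a factor of stem cells, went from 126 to 152 CPM to 36.4 to 47.8 with STAT3 and 31.9 to 51.9 with Y640F. Their differences between the forms were 0.45 (adjusted p = 0.082) and 0.09 (adjusted p = 0.66). Ly6a, which encodes Sca-1, rose from 3.00, 3.68 and 4.72 to 46.6, 47.6 and 53.5 CPM (3.68 ± 0.14, adjusted p = 3.96e-08).

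Mast cell, basophil and eosinophil markers fell in 6 of 14 (42.9%) and rose in 2 (14.3%). Megakaryocyte and platelet markers fell in 10 of 25 (40%) and rose in 4 (16%). Over all tested genes 6.57% were called lower and 9.62% higher. Cpa3, mast cell carboxypeptidase, fell from 4027, 3008 and 3070 to 584, 719 and 838 CPM (-2.24 ± 0.14, adjusted p = 6.12e-07). Hdc, histidine decarboxylase, fell by 1.81 ± 0.15, and F2r, a thrombin receptor, by 2.58 ± 0.12. Ms4a2, the beta chain of the IgE receptor, was at 1177, 738 and 784 CPM with empty vector but at 85.6 to 134 with STAT3 and 78.9 to 154 with Y640F. Prss34, a basophil protease, rose from 0.625 to 1.24 CPM to 12.3 to 22.9 CPM. Prg2, an eosinophil granule protein, rose by 5.68 ± 1.15, with 35.4 CPM in Y640F replicate 1 against 5.24 and 3.63 in the others, and by 3.93 without that library. Of 14 tested erythroid markers, 3 were lower (21.4%) and none higher.

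**Figure D4:**
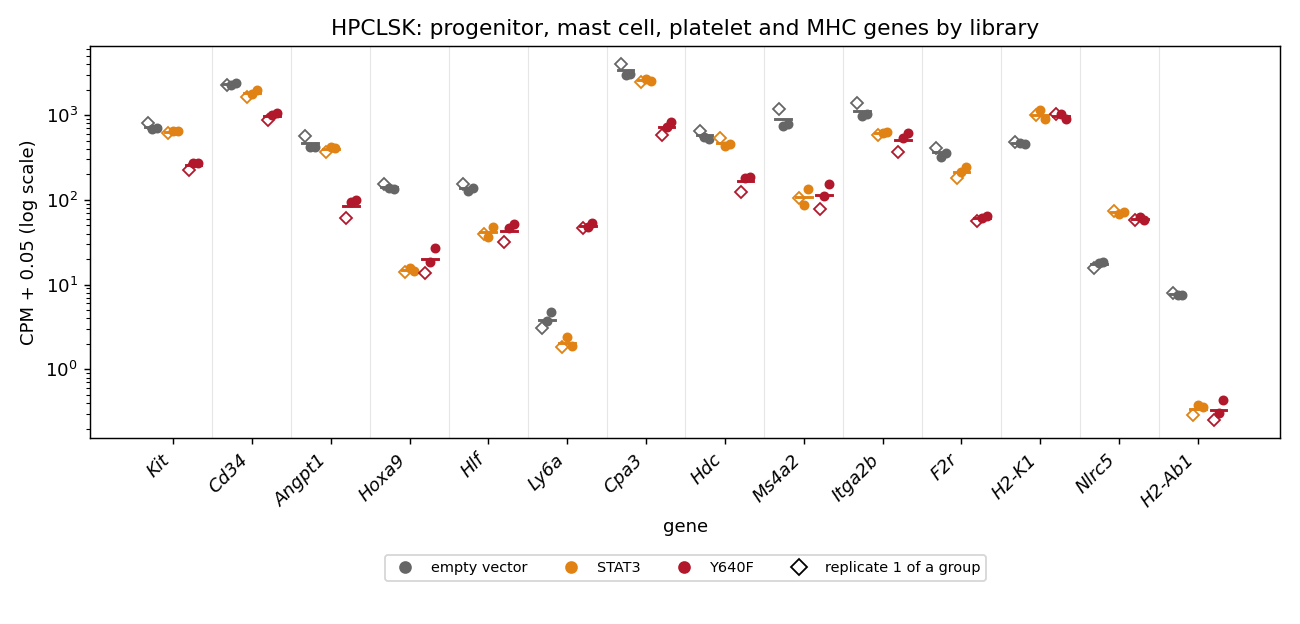
CPM plus 0.05 (vertical axis, log scale) of progenitor, mast cell, platelet and MHC genes in each HPCLSK library, with empty vector grey, STAT3 orange and Y640F red. Bars are group means and open diamonds replicate 1. Kit, Angpt1 and Cpa3 are low with Y640F, while Hoxa9, Ms4a2 and H2-Ab1 are low with both forms.

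Of 40 cell cycle genes 7 were higher (17.5%) and 1 lower (2.5%), against 9.62% and 6.57% of all tested genes. E2f2 rose from 9.66, 13 and 11.3 to 141, 118 and 129 CPM (3.49 ± 0.13), and the only fall called was Ccnd2. Mki67, the proliferation antigen, was 0.86 ± 0.09 higher, under the fold minimum. Among 32 MYC and ribosome-biogenesis genes 2 were higher (6.25%) and 1 lower (3.12%), both under the shares of all tested genes, with a median of -0.0527. Glycolysis and hypoxia genes had 8 of 33 higher (24.2%) and 1 lower (3.03%), but 4 higher without Y640F replicate 1. Slc16a3, a lactate exporter, rose from 14.4, 16.4 and 15.3 to 264, 165 and 150 CPM. Cholesterol and fatty acid genes had 5 of 30 higher (16.7%), 8 without empty vector replicate 1 and 11 without replicate 1 of both groups. Scd1, a desaturase, was at 6.73 CPM in Y640F replicate 1 and 62.1 and 94.9 in the others, against 0 to 0.22 CPM with empty vector. Slc7a11, a cystine transporter, was highest in Y640F replicate 1, at 409 CPM against 125 and 92.8, and its rise of 3.85 ± 0.56 was 2.88 without it.

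The shares of all lists are set side by side in the plot of list members.

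**Figure D5:**
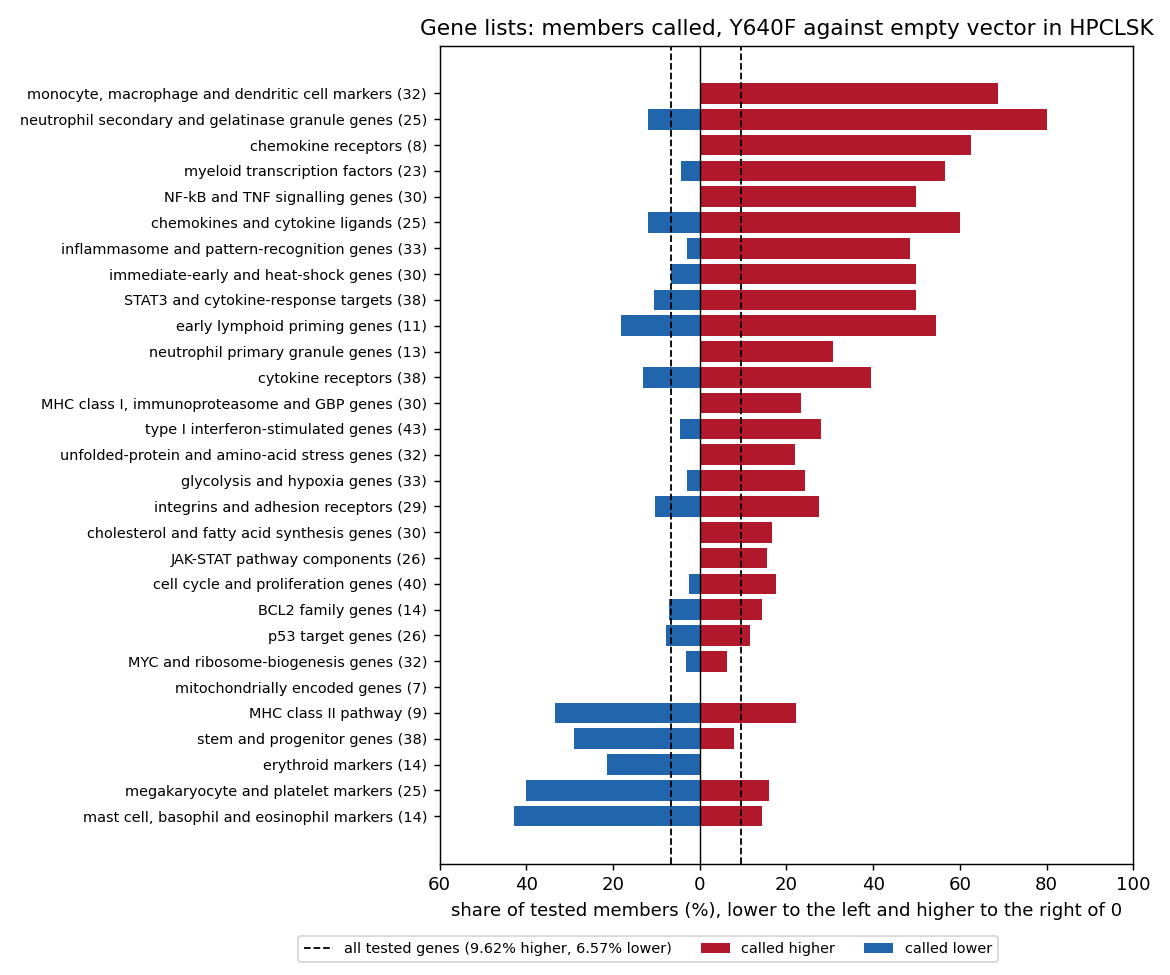
Share of tested members (horizontal axis, percent) called higher (red, right) and lower (blue, left) with Y640F against empty vector, for lists of at least 5 tested members, with the number tested in brackets. Dashed lines mark the shares over all tested genes, 9.62% and 6.57%. Monocyte and neutrophil granule lists lie at the top and mast cell and platelet lists at the bottom.

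Several genes were switched between near 0 and a clear level. Rhoj, a small GTPase, had 1 count over the empty vector libraries and 992 over those of Y640F. Sirpb1a went from 0 to 389 counts (at least 137-fold), Tmem51 from 0 to 367 (at least 129-fold) and Agpat4, a lipid acyltransferase, from 0 to 285 (at least 101-fold). Nos2, the inducible nitric oxide synthase, went from 1 to 319 counts. In the other direction, Cdh9, a cadherin, went from 1074 to 3 counts, a ratio of 338 (95% exact binomial interval 115 to 1640), and Dlc1, a GTPase-activating protein, from 192 to 0 (at least 60.5-fold lower). Itga9, an integrin chain, fell from 94.2, 44.1 and 51.3 to 0.0667, 0.518 and 0.533 CPM (-7.30 ± 0.45, and -6.50 without replicate 1 of both groups). With STAT3, Itga9 was at 1.02 to 2.07 CPM and Cdh9 at 0.469 to 1.32 CPM. Over the genome, chromosome medians ran from -0.0793 (X) to 0.0462 (19).

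Directly against STAT3, Y640F had 1018 genes higher (8.11%) and 765 lower (6.09%) of the same 12552. This comparison and that with empty vector share the Y640F libraries.

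The Y640F response was then compared with that in HPC7 by a test of the difference over 18 libraries. Of 13891 genes, 1075 had a more positive response in HPCLSK (7.74%) and 1007 a more negative one (7.25%). The 9 libraries of each line were run on a flow cell of their own, and strain differs too, so line, strain and run cannot be told apart. Stat3 RNA rose more in HPCLSK, by 0.851 ± 0.07 on the log2 scale (adjusted p = 1.87e-08). Bcl3 also rose more (0.885, adjusted p = 1.95e-04), Pim1 less (-0.397, adjusted p = 0.0163), and Socs3 did not pass the test (0.465, adjusted p = 0.0575).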

How the data were processed

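mRNA libraries of HPCLSK (9) and HPC7 (9) were used, grouped by their titles; the 12 chromatin samples were not used here. The deposited files hold raw counts of reads per gene. Per the file headers, the authors made these counts over exons with featureCounts 1.5.1 at strand setting 2, and the submitters' processing notes name STAR, Trimmomatic and GRCm38. The library kit named in the sample protocols is not the one in the series text. Each library listed 50686 genes, and symbols were matched by gene ID.

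Counts were fitted with edgeR 4.0.16 under R 4.3.3: TMM scaling, the filterByExpr filter, the quasi-likelihood test, and p-values adjusted by Benjamini-Hochberg over every gene tested. The fit within HPCLSK took its 9 libraries (6 residual degrees of freedom), and line differences took all 18. Calls required adjusted p below 0.05 together with a log2 fold change of 1 or more in size. Standard errors were derived from the log2 fold change and the F statistic. With 0 counts in a group, a fold is a bound against 3 counts over the group. Depth limits low genes most, and intervals cover counting error only. The fits were also run on simulated counts, with a smaller fold minimum than that of the calls. The simulated spread was equal for all genes and no library stood apart, so those runs do not measure error rates here.

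Named genes were Stat3, Socs3, Bcl3, Pim1 and Cish, the 8 highest and 8 lowest called genes of at least 5 CPM without overlap, up to 2 called members of each of 32 lists (at most 40), and genes with at most 3 counts in one group and at least 150 in the other. Some genes the rule takes are not reported here, and other list members were chosen after their values were seen. The experiment and the lists were chosen with earlier results of these data known. Alternatives were DESeq2 1.42.0, other normalization, filters, fold rules, a replicate block and left-out libraries.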

Additional observations from a re-analysis of the deposited data

Results flagged for a closer look

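The response to Y640F differed between HPCLSK and HPC7, by edgeR's quasi-likelihood test of the difference of log2 fold changes (HPCLSK minus HPC7), for 1075 genes toward HPCLSK and 1007 away from it. Among the genes for which it was read singly, Stat3 differed by 0.851, Bcl3 by 0.885 and Pim1 by -0.397. Cish differed by -1.505 (adjusted p = 8.67e-07), and in HPC7 it stood at 4.13, 5.003 and 4.37 CPM with empty vector and 8.45, 10.1 and 9.90 with Y640F. Itga9 went from 3114 to 115 counts in HPC7 and from 3197 to 20 in HPCLSK, a difference of -2.232 (adjusted p = 0.00735). Agpat4, near 0 without Y640F in HPCLSK, had 1862 counts with empty vector and 2399 with Y640F in HPC7. Line, strain and sequencing run cannot be told apart in these differences.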

How the results depend on the processing

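Of 2420 values of printed and named genes under alternatives, 24 lost a call and 10 gained one. The losses were in 9 genes: Ngp, Ltf, Camp, Usp18, Gfi1, Icam1, Sh2b2, Stat6 and Mcl1. A gene that the filter of an alternative removed gave no value there and was not counted as a loss, which leaves out low genes. Egr1, not called at -0.53, reversed to a rise of 1.68 without empty vector replicate 1 and 1.77 without replicate 1 of both groups, and its range with 1 library left out was -1.03 to 1.68. No called gene changed direction under the alternatives run. Of 1440 list counts and medians 158 moved. With windows of 100 bases 11 of 12 promoter shares, over all motifs counted, moved, but a shorter window holds fewer matches by its length alone. TTCNNNGAA was then in 2.71% of windows of genes called higher, 2.06% of those called lower and 2.34% of those of tested genes. With a filter of at least 5 CPM in 3 libraries, fewer genes were tested, and the calls fell to 758 higher and 440 lower against empty vector, 614 and 365 against STAT3, and 655 lower for the line difference. With adjusted p alone, 3836 genes were higher and 3513 lower. DESeq2 gave 1185 and 800, and no filter 1541 and 1032. Leaving out each library in turn gave 1152 to 1251 higher and 816 to 910 lower. The median of chromosome X was -0.101 with the stricter filter and -0.11 to -0.076 with a library left out, and that of chromosome 19 was 0.000568 and 0.0109 to 0.0497. The replicate numbers did not pair the libraries: same-numbered libraries of empty vector and Y640F had correlations of deviations of -0.231, -0.106 and -0.176, and with the number as a replicate block 1193 genes were higher and 826 lower. Depth limits genes near 3 counts.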
